A study of Mus musculus with 49 samples.

Results

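Dorsal root ganglia (DRG) hold the cell bodies of the sensory neurons that carry touch and pain signals from the body to the spinal cord. The RNA of 48 DRG libraries, 1 per mouse, was grouped here by the measured level of 1 gene, Sprr1a, and ganglia high in Sprr1a were compared with ganglia low in it. Sprr1a encodes small proline-rich protein 1A, a protein of the cornified envelope of skin that is also made by sensory neurons after their axons are cut. A library counted as high with at least 10 CPM of Sprr1a and as low with under 2 CPM, where CPM is the count of a gene per 1000000 reads assigned to genes. By this rule 10 of the 48 libraries were high, 27 were low, and the 11 that lay between were left out of the comparison. The groups were therefore formed from the readout, and no test of Sprr1a itself is given. A p-value here says how firmly another gene moved with Sprr1a from mouse to mouse, not that a treatment changed it.

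All mice were BERK mice that express human hemoglobin: HbSS-BERK mice carry human sickle hemoglobin, and HbAA-BERK mice, the controls, carry normal human hemoglobin A. They were taken at 2 or 5 months of age, either in room air (normoxia) or after hypoxia/reoxygenation (H/R), for which mice breathed 8% O2 for 3 h and then room air for 1 h, an exposure used to simulate a vaso-occlusive crisis. According to the study's methods H/R was given again a week later and ganglia were collected on the day after the second exposure. Nothing in the labels or methods describes a nerve injury in any group, and the spinal level of the ganglia is not given in the sources used here. The libraries held 12.1 to 24.8 M assigned reads, with a median of 16.9 M in the high and 17.3 M in the low libraries. Defining neuronal genes were abundant in both classes: Nefl, the light neurofilament chain, had a median of 4154 CPM in the high and 4373 CPM in the low libraries. In whole ganglia, more cells of a type cannot be told apart from more RNA per cell.

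When a peripheral axon is damaged, the sensory neuron changes its transcription. Factors such as Atf3, Jun and Sox11 are switched on, and neuropeptides such as galanin and neuropeptide Y, growth-cone proteins and signals to immune cells follow. This response is well known from rodents with a cut or crushed sciatic nerve, where Sprr1a, Atf3, Ecel1, Npy and Gal are among the usual markers.

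The high libraries came from 4 of the 8 groups. The HbAA-BERK mice held 7 of them: 4 of 6 at 5 months after H/R, 2 of 6 at 2 months in normoxia and 1 of 6 at 5 months in normoxia. The other 3 were HbSS-BERK mice, all of the 6 at 2 months after H/R. No library was high among the 7 HbAA-BERK mice studied 2 months old after H/R, the 6 HbSS-BERK mice at 2 months in normoxia, or the 5 and 6 HbSS-BERK mice at 5 months in normoxia and after H/R. Both genotypes, both ages and both treatments were therefore among the high libraries, and in 7 of the 8 groups the mice fell into more than 1 class. In the remaining group, the HbSS-BERK mice given H/R at 5 months, all 6 libraries were low. Sprr1a ran from 12.6 to 121 CPM in the high libraries and from 0 to 1.98 CPM in the low ones. The libraries nearest the limits had 12.6 CPM inside and 9.60 CPM outside the high class, and 1.98 CPM inside and 2.39 CPM outside the low class.

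Known genes of the nerve injury response were higher in the ganglia high in Sprr1a. Of 15708 genes tested besides Sprr1a, 137 (0.872%) were higher and 31 (0.197%) were lower in the high libraries at a Benjamini-Hochberg adjusted p under 0.05 in edgeR's quasi-likelihood test with genotype as a term. The genes that were higher included the transcription factor Atf3 (6.23-fold), the peptidase Ecel1 (13.9-fold) and the neuropeptides Npy (9.37-fold) and Gal (4.18-fold). Changes downward were smaller, with the largest, that of Adra2b, at -0.71 on the log2 scale. Of 48 tested members of 3 injury lists, 26 were higher and 0 were lower, with a median log2 fold change of 0.50 beside 0.00 for all genes tested. The lists were written with earlier results of these data known, so this count is a description and not independent support.

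Atf3, a stress-induced transcription factor that is nearly silent in intact sensory neurons, had 37.0, 57.7 and 202 CPM as its lowest, median and highest level in the 10 high libraries. In the 27 low libraries the same 3 values were 7.74, 11.9 and 23.4 CPM, so that the classes did not overlap. The log2 fold change was 2.64 ± 0.17 (SE, adjusted p = 8.94e-14). From the library with the least Sprr1a of the 10 to that with the most, Atf3 stood at 49.8, 51.2, 37.0, 48.8, 62.7, 52.7, 94.4, 122, 202 and 112 CPM. The 4 libraries richest in Sprr1a were thus the 4 richest in Atf3, although the order within the lower 6 did not follow Sprr1a. Atf3 lies on chromosome 1 (mm10, 191170296 to 191218039, minus strand).

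Ecel1 encodes a membrane peptidase, also called damage-induced neuronal endopeptidase, that is needed for axon growth into muscle. It had 8.96, 23.6 and 53.0 CPM (lowest, median, highest) in the high libraries and 0.232, 1.91 and 4.61 CPM in the low ones. Here too the classes were apart, with a log2 fold change of 3.80 ± 0.29 (SE, adjusted p = 3.74e-12). In the same order of rising Sprr1a, Ecel1 stood at 10.5, 11.1, 8.96, 13.5, 22.02, 25.96, 45.3, 25.2, 53.0 and 51.5 CPM. Ecel1 followed the order of Sprr1a more closely than Atf3 did: over the 10 high libraries Spearman's rho with Sprr1a was 0.92 for Ecel1 and 0.85 for Atf3, given as a description of libraries that were chosen by Sprr1a. Ecel1 also lies on chromosome 1 (mm10, 87147655 to 87156521, minus strand).

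Among the neuropeptides, Npy encodes neuropeptide Y, which intact sensory neurons hardly make. Npy had 3.69, 8.52 and 22.1 CPM in the high and 0.258, 0.838 and 4.15 CPM in the low libraries. The classes overlapped at 1 high library, the HbSS-BERK mouse at 2 months after H/R with the least Sprr1a (3.69 CPM of Npy), and the log2 fold change was 3.23 ± 0.32 (SE, adjusted p = 3.53e-09). In order of Sprr1a the high libraries had 3.69, 5.99, 4.30, 7.31, 8.67, 8.37, 16.7, 14.5, 22.1 and 16.9 CPM. Gal encodes galanin, a peptide that modulates pain signalling and axon growth. Gal had 34.7, 54.6 and 218 CPM in the high and 14.3, 19.6 and 31.9 CPM in the low libraries, without overlap and with a log2 fold change of 2.06 ± 0.19 (SE, adjusted p = 4.56e-10). In order of Sprr1a its levels were 53.3, 34.7, 40.7, 44.0, 55.8, 47.9, 98.7, 118, 218 and 146 CPM. One HbAA-BERK mouse at 5 months after H/R (replicate 6) was the highest of the 10 in all 4 genes. Npy lies on chromosome 6 (mm10, 49822710 to 49829507, plus strand) and Gal on chromosome 19 (mm10, 3409915 to 3414544, minus strand).

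**Figure D1:**
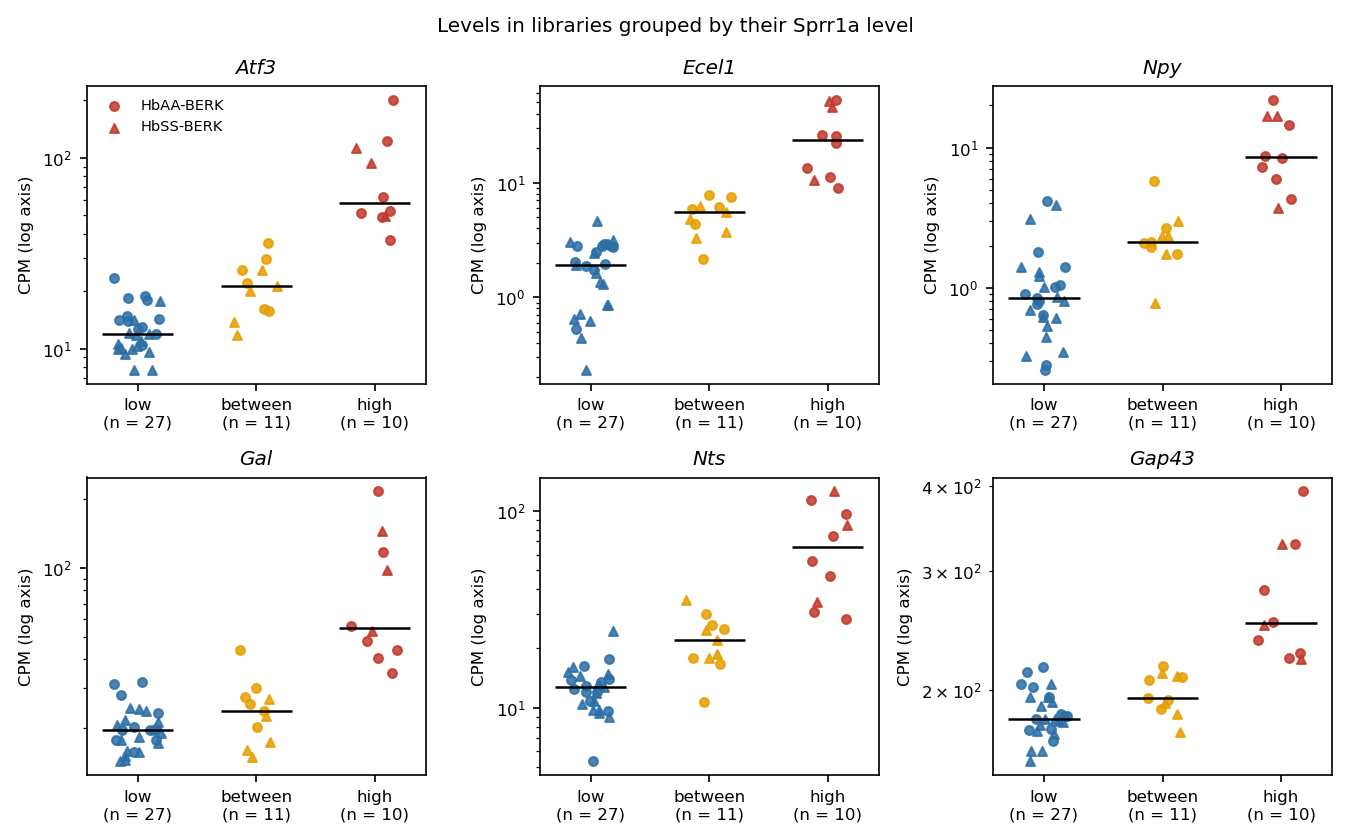
Levels in CPM (log axis) of Atf3, Ecel1, Npy, Gal, Nts and Gap43 in each library, grouped by Sprr1a as low (27), between (11) or high (10); circles are HbAA-BERK mice, triangles HbSS-BERK mice, and bars medians. For Atf3 every high library, from 37.0 CPM upward, lies above every low library, and the median of the libraries between (21.2 CPM) lies between the 2 class medians of 11.9 and 57.7 CPM.

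The libraries left out by the rule give the levels in between. Atf3 had 11.8, 21.2 and 35.6 CPM (lowest, median, highest) in these 11 libraries, and Ecel1 2.15, 5.55 and 7.76 CPM. Both medians lay above those of the low class and below the lowest high library. Npy and Gal had medians of 2.11 and 23.7 CPM, again between the classes. Of the 137 genes called higher, 131 (95.6%) had a mean CPM that lay between the means of the low and the high libraries, compared with 42.9% of all genes tested, although genes called for a wide gap have more room between. For the 31 genes called lower the count was 25 (80.6%). Within the 27 low libraries, where Sprr1a was at most 1.98 CPM, Spearman's rho with Sprr1a was 0.82 for Ecel1 and 0.67 for Atf3 but 0.29 for Npy and 0.39 for Gal. These correlations are descriptions over libraries of several groups, and the levels of Sprr1a there rest on few reads.

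Of the 12 injury factors, the transcription regulators of the response, 3 were higher and 0 lower, with a median log2 fold change of 0.11. Besides Atf3 these were Sox11, which drives axon growth programmes, and Jun, the partner of Atf3 in the AP-1 complex. Sox11 had 13.3, 21.9 and 38.8 CPM in the high and 8.30, 11.4 and 15.1 CPM in the low libraries, a log2 fold change of 0.98 ± 0.11 (SE, adjusted p = 2.19e-07). Its classes overlapped at the lower end of the high libraries. Jun was already at 91.9 CPM in the median low library and at 131 CPM in the median high one, a log2 fold change of 0.39 ± 0.08 (SE, adjusted p = 0.00289). Stat3, the most abundant factor of the list and a carrier of cytokine signals, had medians of 375 and 357 CPM and did not pass the test (log2 fold change 0.09 ± 0.07, SE, adjusted p = 0.861).

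Of the 16 injury peptides and ligands, 12 had enough reads to be tested, and 9 of these were higher and 0 lower. Their median log2 fold change was 0.74. Vip, Reg3b, Reg3g and Il6 were not tested, and Vip, a peptide that strongly follows axotomy in rats, had medians of 0.0752 CPM in the high and 0.122 CPM in the low libraries and reached 3.03 CPM in 1 high library. Nts encodes neurotensin, a peptide that acts on pain pathways. It had 28.2, 65.3 and 126 CPM in the high and 5.32, 12.7 and 24.7 CPM in the low libraries. The classes of Nts did not overlap (log2 fold change 2.46 ± 0.18, SE, adjusted p = 9.08e-13), and over the 10 high libraries its Spearman's rho with Sprr1a was 0.96.

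Crh, the corticotropin-releasing hormone, and Fgf3, a fibroblast growth factor, had low levels and the largest log2 fold changes of this list. Crh had 0.675, 1.32 and 4.76 CPM in the high and 0, 0.122 and 0.307 CPM in the low libraries (log2 fold change 3.97 ± 0.32, SE, adjusted p = 1.74e-11). Fgf3 had 1.23, 1.95 and 8.29 CPM in the high and 0, 0.261 and 0.580 CPM in the low libraries (log2 fold change 3.30 ± 0.27, SE, adjusted p = 2.03e-11). Neither gene overlapped between the classes. Both passed the filter on low counts largely through the high libraries. Their calls, their separation and their place in the counts of this list therefore depend on that filter and are a description. Csf1, the growth factor by which injured sensory neurons signal to macrophages and microglia, had medians of 29.8 and 19.4 CPM. This was a log2 fold change of 0.73 ± 0.08 (SE, adjusted p = 1.12e-07). The lowest high library, at 24.99 CPM, lay just under the highest low one, at 25.17 CPM. Among the other members, Vgf, a neurosecretory protein, rose by 0.74 on the log2 scale, Bdnf, the brain-derived neurotrophic factor, by 0.52, and Adcyap1, the precursor of PACAP, by 0.48.

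The list of injury effectors and growth genes held 24 tested genes, of which 14 were higher and 0 lower, with a median log2 fold change of 0.56. Gap43, a growth-cone protein, had 223, 251 and 394 CPM in the high and 157, 182 and 217 CPM in the low libraries. The classes did not overlap although the log2 fold change was only 0.55 ± 0.07 (SE, adjusted p = 3.67e-07). Gpr151, an orphan receptor of injured and of habenular neurons, had 3.46, 5.21 and 22.8 CPM in the high and 0.908, 1.62 and 2.50 CPM in the low libraries, again without overlap (log2 fold change 2.45 ± 0.21, SE, adjusted p = 8.87e-11). Sdc1, a heparan sulfate proteoglycan, did not overlap either, from 43.4 CPM upward in the high against at most 42.9 CPM in the low libraries (log2 fold change 0.72 ± 0.08, SE, adjusted p = 5.93e-08).

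The cytoskeletal regulator Stmn4 and the guidance and adhesion proteins Sema6a and Flrt3 differed by about the same amount. Their log2 fold changes were 0.98 ± 0.09, 1.01 ± 0.10 and 0.92 ± 0.10 (SE), and 1 or more high libraries overlapped with low ones in each. Timp1, an inhibitor of matrix proteases, had the largest change of the rest at 1.19 ± 0.25 (SE, adjusted p = 0.00538), with 26.4 CPM in the HbAA-BERK mouse at 5 months after H/R (replicate 6) and at most 9.06 CPM in the other high libraries. The urokinase receptor Plaur rose by 0.76, the cytokine signalling inhibitor Socs3 by 0.76, the matrix protease Mmp16 by 0.70, the stress protein Gadd45a by 0.56, the TWEAK receptor Tnfrsf12a by 0.56 and the adhesion protein Lmo7 by 0.41 on the log2 scale. Ngfr, the low-affinity neurotrophin receptor and the most abundant member, had medians of 729 and 641 CPM and did not pass the test (adjusted p = 0.333).

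**Figure D2:**
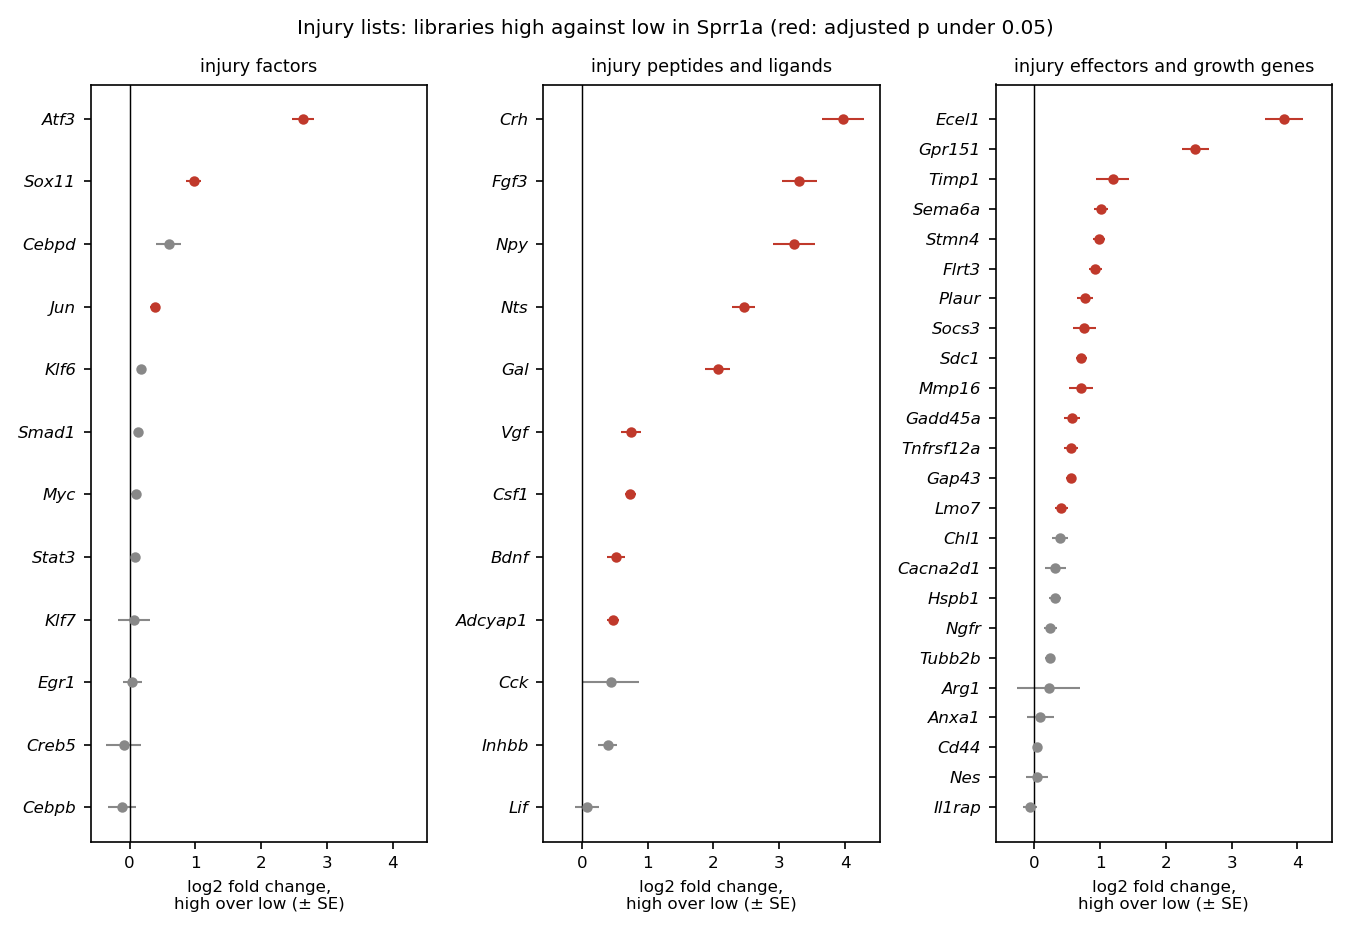
Log2 fold change of high over low libraries (± SE) for the tested members of the 3 injury lists, red where the adjusted p was under 0.05. Crh at 3.97 and Ecel1 at 3.80 had the largest values, and 45 of the 48 genes lay above 0.

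Across all genes, 10 (0.0637%) had all 10 high libraries above all 27 low ones, and 0 had all of them below. These were Atf3, Ecel1, Gal, Nts, Crh, Fgf3, Gpr151, Gap43, Sdc1 and Wfdc3, so that 9 of the 10 were in the 3 injury lists. Because the lists were written with earlier results of these data known, this overlap is a description. Crh, Fgf3 and Wfdc3 also passed the filter on low counts largely through the high libraries, so their separation is a description. Wfdc3, a member of a protease-inhibitor family, had 1.68, 3.17 and 7.54 CPM in the high and 0.116, 0.404 and 1.35 CPM in the low libraries (log2 fold change 2.95 ± 0.23, SE, adjusted p = 1.19e-11). Cckbr, the cholecystokinin B receptor that appears on sensory neurons after axotomy, came close to separation. It had 1.01, 4.18 and 9.63 CPM in the high and 0, 0.258 and 1.18 CPM in the low libraries (log2 fold change 3.47 ± 0.32, SE, adjusted p = 5.17e-10). Cckbr too passed the filter on low counts largely through the high libraries.

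Levels of different genes can be set side by side only per length of transcript. In the authors' FPKM values the mean of the high libraries was 161 for Gal, 66.8 for Nts, 44.7 for Atf3, 30.0 for Npy, 9.10 for Ecel1 and 1.66 for Crh. In the low libraries the same genes had 38.2, 12.4, 7.02, 3.22, 0.661 and 0.0916 FPKM. Galanin was thus the most abundant of these 6 transcripts in both classes and corticotropin-releasing hormone the least.

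Atf3 and Jun belong to families whose dimers bind the AP-1 letters TGACTCA or, on the other strand, TGAGTCA, and the letters were counted in the 250 bases before and 50 bases after each gene's start in RefSeq. They occurred in 9 of the 95 genes called higher that had a promoter in the table (9.47%), compared with 4.73% of the 11855 genes tested and 5.95% of all 27025 genes with a promoter there. Of the genes called lower, 2 of 23 had them. The cyclic AMP response letters TGACGTCA, which ATF and CREB proteins bind and which do not contain the AP-1 letters, were found in 0 of the 95 genes called higher and in 3.36% of the genes tested. Atf3, Ecel1, Npy and Gal had neither run of letters in this window. The genes with AP-1 letters were Rnh1, Plaur, Npy1r, Srxn1, Lrrc15, Vash2, Nts, Smr2 and Trim15, and Sprr1a, the gene of the rule, had them as well.

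The 250 bases before the start are shown for Sprr1a and for Nts, Plaur and Srxn1, genes that rose and carry the letters, so that the matches can be seen in place. Capitals mark AP-1 letters, and every other base is in lower case, read 5′ to 3′ on the strand of the gene (build GRCm38.p6). They begin 146 and 116 bases before the start in Sprr1a, 207 in Nts, 69 in Plaur, and 102 and 45 in Srxn1, which encodes the antioxidant enzyme sulfiredoxin.
Sprr1a (chr3:92485882-92486131, minus strand): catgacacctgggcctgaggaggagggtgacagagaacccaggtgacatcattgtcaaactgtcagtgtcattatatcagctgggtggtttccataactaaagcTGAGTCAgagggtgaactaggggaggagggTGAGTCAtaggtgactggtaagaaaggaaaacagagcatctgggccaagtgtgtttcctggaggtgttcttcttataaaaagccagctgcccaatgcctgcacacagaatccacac
Nts (chr10:102490419-102490668, minus strand): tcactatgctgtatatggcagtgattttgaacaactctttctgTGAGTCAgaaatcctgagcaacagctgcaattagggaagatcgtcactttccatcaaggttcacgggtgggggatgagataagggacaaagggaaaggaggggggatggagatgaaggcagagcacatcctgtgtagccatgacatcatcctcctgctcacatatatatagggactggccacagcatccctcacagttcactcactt
Plaur (chr7:24462233-24462482, plus strand): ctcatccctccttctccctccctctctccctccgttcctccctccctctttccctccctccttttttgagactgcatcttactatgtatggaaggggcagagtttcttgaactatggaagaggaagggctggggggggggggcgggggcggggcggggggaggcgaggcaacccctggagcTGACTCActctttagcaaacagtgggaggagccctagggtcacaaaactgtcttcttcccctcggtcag
Srxn1 (chr2:152105274-152105523, plus strand): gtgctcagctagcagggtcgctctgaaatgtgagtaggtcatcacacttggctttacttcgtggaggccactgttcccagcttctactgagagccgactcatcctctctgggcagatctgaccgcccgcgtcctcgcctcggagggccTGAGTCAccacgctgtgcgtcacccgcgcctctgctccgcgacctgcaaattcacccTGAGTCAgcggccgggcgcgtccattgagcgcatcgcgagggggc
A match of letters is a description and not evidence of a bound site. Srxn1 itself was abundant, with 407, 479 and 704 CPM in the high and 322, 362 and 430 CPM in the low libraries (log2 fold change 0.43 ± 0.05, SE, adjusted p = 1.28e-06).

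Other genes among the 137 were chosen for mention after their values were seen. Slc6a4, the serotonin transporter, had 2.45, 3.95 and 13.9 CPM in the high and 0.388, 1.27 and 5.06 CPM in the low libraries (log2 fold change 2.11 ± 0.29, SE). Wt1, a zinc-finger transcription factor, rose by 1.82, the seizure-related membrane protein Sez6l by 1.22, the Ras effector Rin1 by 1.17 and the steroidogenic transport protein Star by 0.69 on the log2 scale. Dsp, the desmosomal plaque protein, rose by 1.32 and Lamb3, a laminin chain of epithelial basement membrane, by 1.45. The cytokine receptor chains Il13ra1 and Il4ra rose by 0.46 and 0.35, and Irak3, an inhibitor of toll-like receptor signalling, by 0.43. The artemin receptor Gfra3, which marks small peptidergic sensory neurons, rose by 0.37.

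The 31 genes called lower changed little. The 15 with the smallest adjusted p changed by 0.23 to 0.69 on the log2 scale, and in each of them some high libraries overlapped with low ones. Several encode receptors and channels, and which cells made their RNA cannot be told from whole ganglia. Adrb1, the beta-1 adrenergic receptor, had 0.805, 1.70 and 2.15 CPM in the high and 1.64, 2.67 and 3.73 CPM in the low libraries (log2 fold change -0.69 ± 0.13, SE, adjusted p = 0.00216). Agtr1a, the type 1a angiotensin II receptor, had 13.2, 17.4 and 29.1 CPM in the high and 18.05, 27.1 and 33.7 CPM in the low libraries (log2 fold change -0.41 ± 0.08, SE, adjusted p = 0.00378). The serotonin receptor Htr5b fell by 0.49, and the inward-rectifier potassium channels Kcnj4 and Kcnj11 fell by 0.35 and 0.31 on the log2 scale.

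Rem2, a small GTPase that holds back voltage-gated calcium channels, had medians of 20.9 and 31.9 CPM and fell by 0.47. Rtn4rl1, a relative of the Nogo receptor that limits axon growth, was abundant, with 69.1, 92.8 and 108 CPM in the high and 94.1, 115 and 131 CPM in the low libraries. It fell by 0.29 on the log2 scale (adjusted p = 0.0113). Dkk3, a secreted protein of the Dickkopf family, fell by 0.23, the membrane progestin receptor Paqr5 by 0.30, the organic anion transporter Slco4a1 by 0.41 and the unconventional myosin Myo1a by 0.28. The ciliary protein Ttc29 fell by 0.62, the cyclin-dependent kinase Cdk15 by 0.28 and the adaptor Samsn1 by 0.28. Egln3, an oxygen-sensing prolyl hydroxylase, fell by 0.36 (adjusted p = 0.0174). It was the 1 called gene among 10 hypoxia-inducible factor targets, beside 0.197% of all genes tested called lower. The median log2 fold change of these targets was -0.05, and the most abundant, Ndrg1, had an adjusted p of 0.998. Adra2b, Cacna1i and Th, named here after their values were seen, fell by 0.71, 0.35 and 0.38. The first 2 encode an adrenergic receptor and a T-type calcium channel, and Th is tyrosine hydroxylase, which marks a class of low-threshold touch neurons.

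Genes that define neuron classes moved much less than the injury genes. The median log2 fold change of 20 nociceptor identity genes was 0.02. Of these 20 genes 2 were higher and 0 lower, beside 0.872% and 0.197% of all genes tested. Both encode peptides: Calca, the precursor of CGRP, had 1273, 1583 and 2332 CPM in the high and 956, 1234 and 1606 CPM in the low libraries, a log2 fold change of 0.40 ± 0.07 (SE, adjusted p = 0.000498), and Tac1, the precursor of substance P, rose by 0.26 (adjusted p = 0.00367). The sodium channel Scn10a, at mean levels of 975 and 955 CPM, had a log2 fold change of 0.01 ± 0.09 (SE). None of 10 large-fibre genes passed (median -0.08), and of 14 pan-neuronal genes only Gap43, counted above, did (median -0.02). Nefh, the heavy neurofilament chain, had medians of 2039 and 2045 CPM.

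The list of reactive and repair glia genes held Serpina3n, a protease inhibitor that rises in ganglia after nerve injury. It had 202, 254 and 557 CPM in the high and 156, 177 and 217 CPM in the low libraries (log2 fold change 0.55 ± 0.09, SE, adjusted p = 0.000247). Which cells made this RNA cannot be told from whole ganglia. Serpina3n was the only one of 11 reactive and repair glia genes to pass, beside 0.872% of all genes tested called higher. The median of that list was 0.15. Vim, the most abundant of them, had an adjusted p of 0.572. None of 9 satellite glia genes (median 0.11, led by Apoe at medians of 3556 and 3317 CPM) and none of 10 myelinating Schwann cell genes (median -0.07) passed.

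Of 11 interferon genes 2 were higher, the antiviral proteins Oasl2 by 0.43 (adjusted p = 1.22e-05) and Ifit1 by 0.42 (adjusted p = 0.00791), beside 0.872% of all genes, and the median of the list was 0.33. With the 8 groups as a factor Oasl2 passed (adjusted p = 0.0130) and Ifit1 did not (0.693). None of 16 macrophage genes passed, although 15 of them had a log2 fold change above 0 and the median was 0.24. Lyz2, the most abundant, had medians of 196 and 159 CPM with wide overlap, and the complement genes C1qa, C1qb and C1qc of macrophages had log2 fold changes of 0.45, 0.53 and 0.48 with adjusted p of 0.426, 0.265 and 0.230. No gene passed among 8 inflammation genes (median 0.43, Nfkbia highest) or 11 neutrophil genes (median -0.10, S100a9 highest). The same held for 7 T and NK cell genes (median -0.37, Lck highest) and 6 B cell genes (median -0.96, Jchain highest). All 8 inflammation genes lay above 0, 4 of them at an unadjusted p under 0.05 in edgeR's test, and their smallest adjusted p was 0.0807. At that unadjusted threshold 5 B cell genes were lower.

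Stress and metabolic lists showed 0 calls. The medians were 0.22 for 9 integrated stress response genes, all of them above 0 (Hspa5 highest), 0.14 for 9 immediate early genes (Nr4a1 highest), -0.01 for 7 heat shock genes (Hspb8 highest), 0.04 for 7 glucocorticoid genes (Tsc22d3 highest), 0.10 for 8 complement and antigen presentation genes (B2m highest) and -0.02 for 9 cholesterol synthesis genes (Hmgcs1 highest). At an unadjusted p under 0.05 in edgeR's test, 5 of the 9 integrated stress response genes were higher. Their smallest adjusted p was 0.0651. At that unadjusted threshold 2 immediate early genes were higher, and 1 each of the heat shock, glucocorticoid, and complement and antigen presentation genes. For cholesterol synthesis the number was 0, and 0 genes in these lists were lower. The lack of a call does not show that stress genes stayed level while the injury genes moved.

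**Figure D3:**
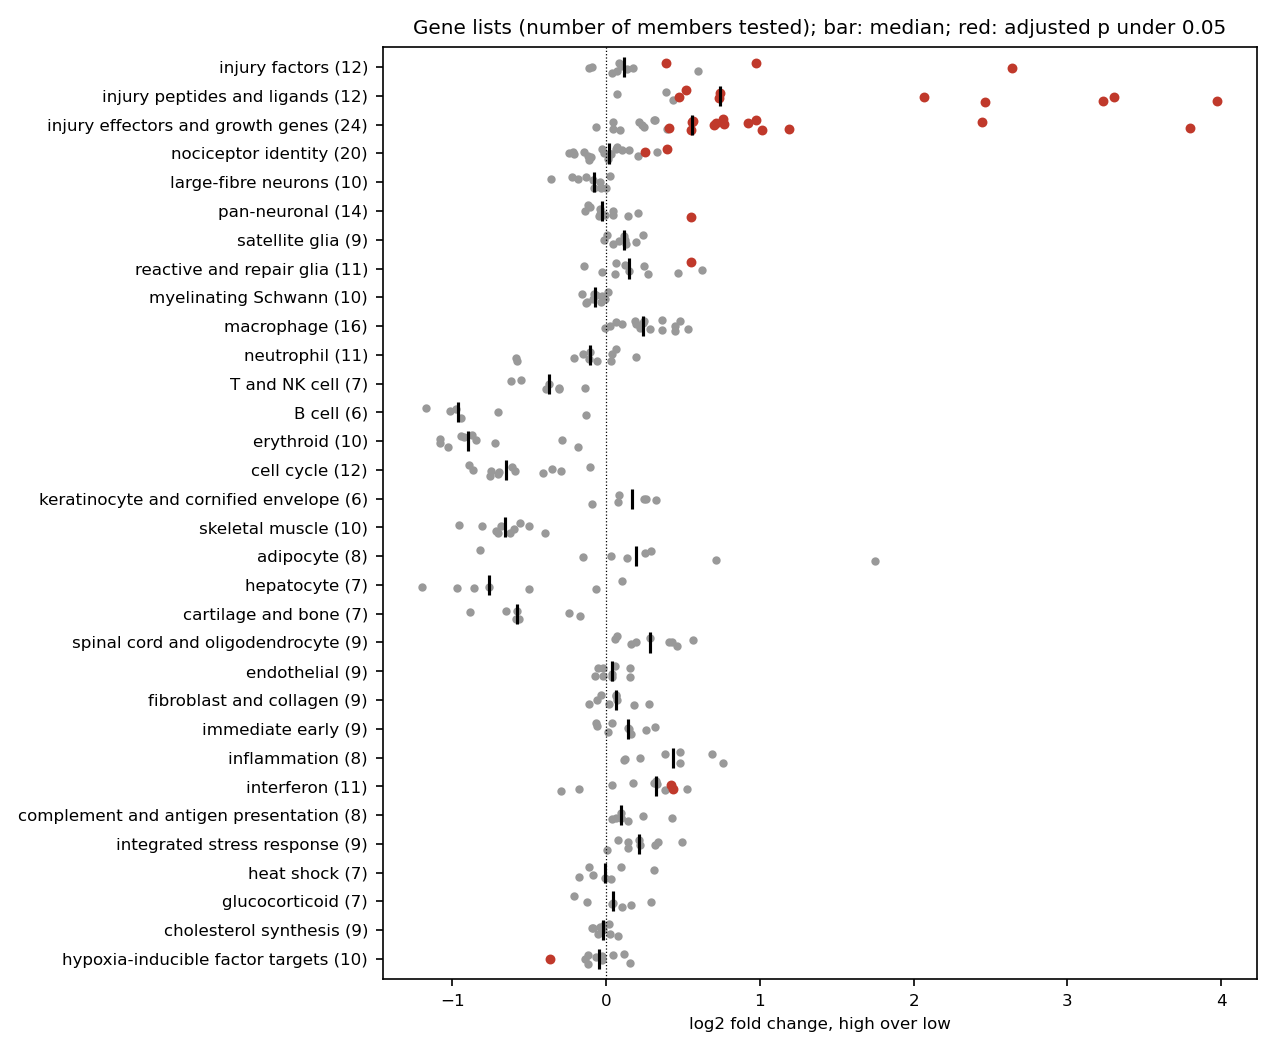
Log2 fold change of high over low libraries for the tested members of each gene list (their number in brackets); bars are list medians, and red points passed the test. Red points lie mostly in the 3 injury lists (26 genes), and the lowest medians are those of the B cell (-0.96) and erythroid (-0.90) lists, where no gene passed.

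Sprr1a is also a gene of skin, and markers of skin and other neighbouring tissues were read in the same libraries. Of 19 keratinocyte and cornified envelope genes in the table besides Sprr1a, 6 could be tested and 0 passed. The summed level of the list ran from 24.6 to 38.6 CPM in the high and from 21.7 to 39.5 CPM in the low libraries. Most of this came from Perp and Krt10, at medians of 16.6 and 15.3 CPM for Perp. The related genes Sprr3, Sprr2a1 and Sprr2d were at 0 in all 48 libraries, and Krt5 was at 0 in 40. The stress keratins Krt6a and Krt16 were at 0 in 37 and 36 libraries, with means of 0.229 and 0.176 CPM in the high against 0.00635 and 0.00479 CPM in the low libraries, and Krt14 had 0.428 against 0.172 CPM. Without the 3 libraries with the highest summed keratinocyte list, 2 of them high, 77 genes were higher and 20 of the injury list members were among them. These 3 included the HbAA-BERK mouse at 5 months after H/R (replicate 6), and leaving out that mouse alone gave 91 higher genes. The part of keratinocyte reads in the lower count was not tested.

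Several lists of blood, muscle and other tissues had a median log2 fold change below 0, and no gene in them passed the test. The median log2 fold change was -0.90 over 10 erythroid genes, -0.65 over 12 cell cycle genes, -0.65 over 10 skeletal muscle genes, -0.76 over 7 hepatocyte genes and -0.58 over 7 cartilage and bone genes, with 0 genes called in each. Alas2, the erythroid heme synthesis enzyme, had medians of 52.2 and 153 CPM but, with genotype as a term, a log2 fold change of only -0.28 ± 0.30 (SE). For Mki67, Acta1 and Comp the fitted values were -0.75 ± 0.38, -0.50 ± 0.39 and -0.24 ± 0.21 (SE). The summed hepatocyte level had medians of 19.1 CPM in the high and 16.1 CPM in the low libraries, against the sign of the fitted median, and 1 low library held 334 CPM of Alb. The summed erythroid level ran from 59.6 to 701 CPM in the high and from 77.1 to 2230 CPM in the low libraries. Its part in the results was not tested. Medians were 0.19 for 8 adipocyte genes (Fabp4 highest), 0.28 for 9 spinal cord and oligodendrocyte genes (Slc1a2 highest), 0.04 for 9 endothelial genes (Vwf highest) and 0.07 for 9 fibroblast and collagen genes (Dcn highest). Alb, the liver protein albumin, exceeded 20 CPM in 4 of the 48 libraries, 2 high, 1 low and 1 between. Without these, 143 genes were higher, 25 of them members of the injury lists. The Y-linked genes of the sex check were present in both classes, with Ddx3y at 38.2 CPM or more in the high and 39.0 CPM or more in the low libraries. Xist was at 2.05 CPM in the low library with 334 CPM of Alb, an HbAA-BERK mouse at 2 months after H/R (replicate 2). In all other libraries Xist was at 0.442 CPM or less. The source of the Xist reads was not tested.

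The difference was present in each genotype when it was fitted in separate mice. In the HbAA-BERK libraries alone, 7 high and 12 low, 37 genes (0.241%) were higher and 9 (0.0586%) lower. In the HbSS-BERK libraries alone, 3 high and 15 low, 42 (0.266%) were higher and 0 were lower. The 2 fits share no library, and 24 genes were called higher in both, 64.9% of the HbAA-BERK and 57.1% of the HbSS-BERK genes. These include Atf3, Ecel1, Npy, Gal, Nts, Crh, Fgf3, Gpr151, Cckbr, Wfdc3, Sox11, Gap43, Csf1, Stmn4, Sema6a, Flrt3, Sdc1, Slc6a4 and Wt1. Among them Crh, Fgf3, Cckbr and Wfdc3 passed the filter on low counts largely through the high libraries. Of the 37 genes of the HbAA-BERK fit, 34 also had a log2 fold change above 0 in HbSS-BERK mice, where 49.9% of all genes did. All 3 high HbSS-BERK libraries belong to 1 group, at 2 months after H/R, which also holds 2 low libraries. Within that group Atf3 stood at 49.8, 94.4 and 112 CPM in the high and at 14.2 and 17.7 CPM in the low libraries.

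For Atf3 the 3 high HbSS-BERK libraries had 49.8, 94.4 and 112 CPM and the 15 low ones 7.74 to 17.7 CPM, while the 7 high HbAA-BERK libraries had 37.0 to 202 CPM and the 12 low ones 10.5 to 23.4 CPM. The log2 fold change was 2.97 in HbSS-BERK and 2.43 in HbAA-BERK mice, a difference of 0.53 ± 0.38 (SE, unadjusted p = 0.171 in edgeR's quasi-likelihood test). Ecel1 had the widest gap of the 4 markers, at 4.50 and 3.31, a difference of 1.19 ± 0.61 (SE, unadjusted p = 0.0613). For Npy and Gal the difference was 0.32 ± 0.71 and 0.53 ± 0.41. Across all genes the interaction of genotype with class gave 0 genes in edgeR at an adjusted p under 0.05 (0%) and 361 (2.24%) at an unadjusted p under 0.05, and DESeq2 gave 0 and 452. The 5 genes with the smallest p were the muscle genes Myh2, Tnnt1 and Myl2, the vomeronasal receptor Vmn1r181 and Fndc8, all with an adjusted p of 1.00 after rounding. A p above the threshold does not show that the genotypes were alike, and the standard errors of the 4 marker differences (0.38 to 0.71) say how wide they are.

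**Figure D4:**
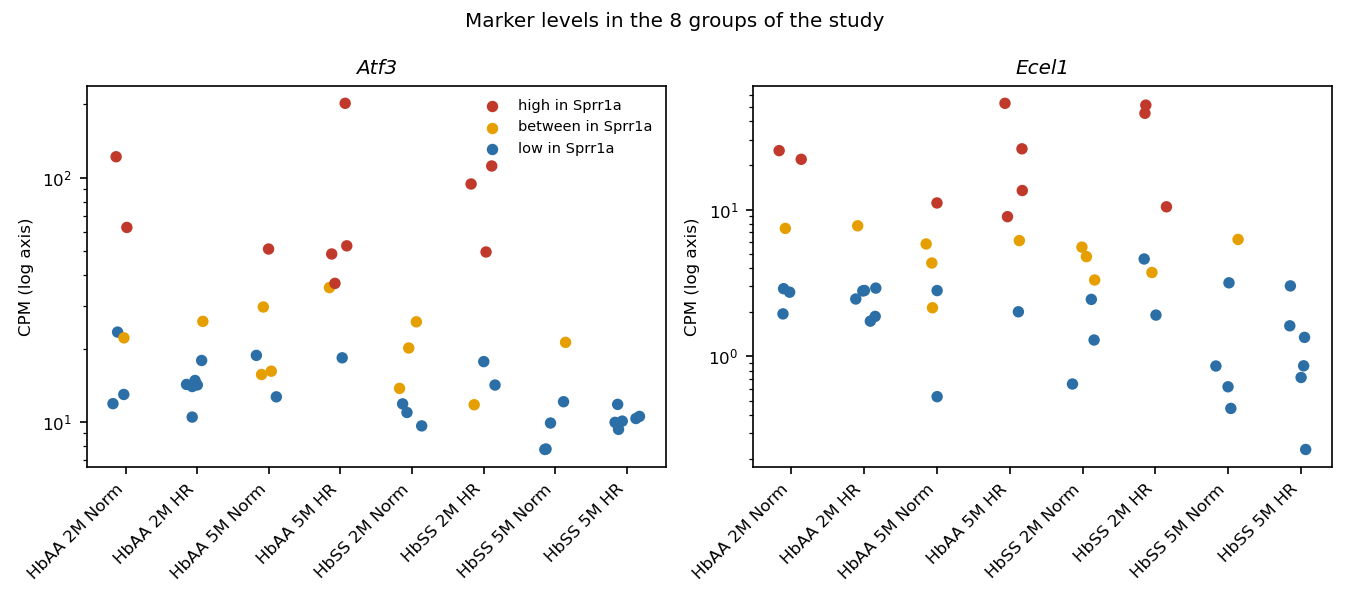
Levels in CPM (log axis) of Atf3 and Ecel1 in each library of the 8 groups, coloured by the Sprr1a class. In the HbAA-BERK group at 5 months after H/R the levels of Atf3 run from 18.4 to 202 CPM, while in the HbSS-BERK group of that age and treatment, with no high library, they run from 9.35 to 11.8 CPM.

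Within the groups of the study the markers kept their difference. With the 8 groups as a factor, 33 genes (0.205%) were higher and 1 (0.00621%), Gramd4, was lower, and 28 of the 33 were also called in the fit with genotype alone. High and low libraries occur together only in 4 groups, so this comparison rests on those. Atf3 had a log2 fold change of 2.30 ± 0.27 (SE), Ecel1 of 3.30 ± 0.44, Npy of 3.46 ± 0.50 and Gal of 1.99 ± 0.32. Of the injury lists 15 members were called, among them Nts, Crh, Fgf3, Gpr151, Sox11, Gap43 and Csf1, and of the 2 nociceptor peptides Calca passed (adjusted p = 0.0221) and Tac1 did not (0.136). Jun (0.212) and Serpina3n (0.232) also did not pass there. None of the 15 lower genes with the smallest p passed in this fit, and their adjusted p ran from 0.132 (Cdk15) to 0.866 (Dkk3).

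The counts leaned on the libraries with most Sprr1a. Leaving out the HbAA-BERK mouse at 5 months after H/R (replicate 6) gave 91 higher and 17 lower genes, and leaving out the HbSS-BERK mouse at 2 months after H/R (replicate 6) gave 100 and 15. Without both, 59 genes were higher and 3 lower, and 16 injury list members were called, with Atf3, Ecel1, Npy and Gal among them. Within an age, 54 genes were higher at 2 months and 3 at 5 months, where all 5 high libraries were HbAA-BERK mice and 3 of the 13 low ones were. At 5 months Atf3, Ecel1, Npy and Gal had log2 fold changes of 2.25, 3.64, 3.40 and 1.74 with adjusted p of 0.146, 0.205, 0.212 and 0.574. Of the 35 fits in all, Nts and Wfdc3 were called higher in each. The fits share libraries, and Wfdc3 passed the filter on low counts largely through the high ones, so this is a description.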

How the data were processed

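RNA of DRG from single mice was sequenced as 50 bp paired-end reads on an Illumina HiSeq instrument. Per the study's methods and the submitters' processing notes, reads were trimmed with Trimmomatic, aligned to mm10 with TopHat2 2.0.13 and Bowtie2 2.2.4.0, and counted per gene with featureCounts. The counts deposited by the authors are whole reads per gene and were used as deposited. The authors' FPKM values came from Cuffquant and Cuffnorm and served for levels per length and for an alternative test. The authors' fold changes were not used.

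Columns were matched to samples by name, which gave 48 libraries. In 2 of the groups a column name with its replicate number stands over 2 columns; these 4 columns were used as replicates of their group without a number. The table also has 1 column whose name gives an age of 4 months, which no sample label carries; it was not used, which leaves 5 libraries in the HbSS-BERK group at 5 months in normoxia. Of 24420 rows, 27 had names turned into dates (0.237 to 0.262% of reads) and were dropped. CPM is the count divided by the sum of the remaining 24393 rows; it is given per 1000000.

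Genes were tested in edgeR 4.0.16 (TMM scaling, filterByExpr, quasi-likelihood test, Benjamini-Hochberg adjustment over all genes, threshold 0.05), with genotype as a term. DESeq2 1.42.0, limma 3.58.1 and other covariates, limits and subsets were alternatives, and the test was tried on simulated data. The common biological coefficient of variation was 0.206. The classes, markers and gene lists were chosen with earlier results of these data known. Named genes were the 4 markers, the first 15 called genes upward and downward, ranked by adjusted p, whose genotypes shared a sign, called members of the injury lists, up to 4 called members and the most abundant member of each other list, and the 5 smallest interaction p; others are said to be chosen after their values were seen. The most abundant member of some lists is not reported here. Reads were counted without a stated strand setting, so overlapping genes may share reads. Gene positions are from GENCODE vM21, promoters from RefSeq.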

Additional observations from a re-analysis of the deposited data

Results flagged for a closer look

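Single libraries stood apart from the rest of their set in 13 of 58 sets examined, by a gap wider than Dixon's 95% critical share of the range. Chance alone gives about 1 in 20 for independent sets of normally distributed values. The sets here share libraries and hold skewed levels of genes that move together, so 13 of 58 cannot be read against that rate. The HbAA-BERK mouse at 5 months after H/R (replicate 6) was the highest in most of these. Within its group of 6 it had 202 CPM of Atf3 (next 52.7), 22.1 CPM of Npy (next 8.37) and 218 CPM of Gal (next 47.9). Among the 10 high libraries it also led in Atf3 (202 CPM, next 122), Fgf3 (8.29, next 4.89), Socs3 (56.9, next 21.1), Stmn4 (64.0, next 45.6), Timp1 (26.4, next 9.06) and Vgf (251, next 170). For Socs3 and Timp1 the gap to the next library was larger than the spread of the other 9.

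In other groups, Gal reached 118 CPM in an HbAA-BERK mouse at 2 months in normoxia (replicate 3, next 55.8), and Npy 5.99 CPM in an HbAA-BERK mouse at 5 months in normoxia (replicate 1, next 2.11). Ecel1 reached 7.76 CPM in an HbAA-BERK mouse at 2 months after H/R (replicate 1, next 2.92), a library between the Sprr1a limits in a group without a high one. The single low value was Gal at 15.1 CPM in an HbSS-BERK mouse at 5 months after H/R (replicate 3, next 21.3).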

How the results depend on the processing

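Atf3, Ecel1, Npy and Gal kept their direction in all 34 alternatives and passed the test in all but the fit of 5-month mice. With genotype alone 137 genes were higher, 31 lower and 26 injury list members higher. Leaving out each high library in turn gave 91 to 147 higher, 15 to 56 lower and 22 to 26 injury list members. Higher genes numbered 33 with the 8 groups as a factor, 25 with the replicate split (replicates 1 to 3, or 4 in 1 group, against the rest) added, 214 with Y-linked counts as a covariate, 220 with log2 Sprr1a as a number over all 48 libraries, 37 in HbAA-BERK, 42 in HbSS-BERK, 54 at 2 months, 3 at 5 months, 15 in normoxia, 75 after H/R, 77 without the 3 libraries richest in keratinocyte genes and 59 without the 2 libraries highest in Sprr1a, an alternative chosen after seeing the data. Lower genes numbered 56 in DESeq2, 1 with 8 groups, 54 with the replicate split, 0 with both, 88 with Y-linked counts, 9 with limits of 20 and 1 CPM, 78 with Sprr1a as a number, 9 and 0 in HbAA-BERK and HbSS-BERK alone, 0 and 1 at 2 and 5 months, 0 and 6 in normoxia and H/R, 48 without libraries over 20 CPM of Alb, 8 without the keratinocyte-rich libraries and 3 without the 2 highest. Injury list members numbered 15 with the 8 groups, 15 with the split added, 16 in each genotype alone, 1 at 5 months, 13 in normoxia and 16 without the 2 highest. Subsets hold fewer libraries; otherwise the cause was not tested. The interaction gave 0 genes in every fit.

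With the replicate number as a block, and the 4 libraries without a number left out, 137 genes were higher and 27 lower, against 133 and 29 without the block. The labels do not say that numbers mark shared animals or days. Deviations of libraries with 1 number correlated at a mean r of 0.129 (76 pairs), those of other numbers within the same split at 0.188 (204 pairs) and across it at -0.228 (285 pairs). Genes with a median under 1 CPM in the low libraries, such as Crh, Fgf3, Wfdc3 and Cckbr, rest on few reads per low library.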
